A study of Rattus norvegicus with 47 samples.

Results

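The proteasome genes were described in rat liver lesions produced by N-nitrosomorpholine and phenobarbital, and in the liver surrounding those lesions. All genes with a symbol from the Psma to the Psmg series were taken from the array's probe-to-gene table, without regard to their measured values. A gene needed a probe set that named it alone, and the brightest such probe set within frozen or within fixed tissue stood for the gene. This gave 46 of the 14217 genes measured: 7 genes of the alpha ring, 6 of the constitutive beta ring, 3 of the immunoproteasome, 6 regulatory ATPases, 11 regulatory non-ATPase subunits, 3 chaperones of the regulatory particle, 3 activators, 1 inhibitor, 4 chaperones of the core and 2 interacting proteins. Psmc3ip and Psme3ip1, the interacting proteins, share the symbol but are not subunits. Psmb6, the third constitutive catalytic subunit, and the activator gene Psme3 are named on the array only by probe sets shared with other symbols, so they were not measured here.

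The proteasome is the protease that degrades proteins tagged with ubiquitin. Its core particle is a barrel of alpha and beta rings, and the catalytic sites lie on beta subunits inside it. The regulatory particle caps the barrel, recognises ubiquitin, and unfolds substrates with a ring of ATPases. Under interferon gamma, Psmb8, Psmb9 and Psmb10 replace Psmb5, Psmb6 and Psmb7 in newly built barrels. The resulting immunoproteasome favours peptides that fit MHC class I. Psme1 and Psme2 together form an activator ring that can dock on the barrel in place of the regulatory particle and is also induced by interferon. In liver, immunoproteasome subunits are found in hepatocytes exposed to inflammation and in resident immune cells.

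Every animal was a male Wistar rat that received 1 dose of 250 mg/kg N-nitrosomorpholine, a liver carcinogen, at 4 weeks of age. After 3 weeks of recovery it drank phenobarbital at 50 mg/kg per day, a promoter of hepatocyte tumours, for up to 17 months. Lesions and surrounding liver therefore shared the same treatment, and no untreated rat entered a comparison. The frozen arrays were 7 of surrounding liver from 5 rats, 5 of nodules from 3 rats, 6 of adenomas from 2 rats, 4 of carcinomas from 3 rats, and 4, also from 3 rats, of carcinomas whose labels name a mutation of beta-catenin. The formalin-fixed, paraffin-embedded (FFPE) arrays came from laser-microdissected tissue and were 4 of surrounding liver from 4 rats, 9 of foci from 3 rats and 5 of adenomas from 3 rats. A further 3 arrays, whose labels call the tissue both normal and surrounding, were left out of comparisons.

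Values are log2 intensities as deposited, and a difference of 1 is a doubling. Array medians lay between 5.49 and 5.59 in frozen tissue and between 5.58 and 5.68 in FFPE tissue. The number of arrays limits the precision. Differences were fitted with limma across all 14217 genes, with the rat as a block and each fixation apart. They are given as log2 values ± SE, with Benjamini-Hochberg adjusted p-values, and a gene was called at an adjusted p below 0.05. Counts at an unadjusted p below 0.05 cover the proteasome genes alone. The share of all genes at that threshold was not counted, so these counts cannot be set against it. Lesions of 1 rat were treated as separate samples, so p-values measure the spread between samples. All frozen lesion groups were compared with the same 7 surrounding arrays. Albumin, the defining hepatocyte product, ranged from 14.95 to 15.13 over the frozen arrays compared and from 14.15 to 14.58 over the FFPE arrays. Over the 7 hepatocyte markers measured, the mean relative to surrounding liver ranged from -0.38 to -0.10 in carcinomas and from -0.82 to -0.09 in beta-catenin carcinomas, below every surrounding array (-0.06 to 0.11). It ranged from -0.15 to -0.04 in frozen adenomas and from -0.13 to 0.09 in nodules. These are bulk tissue values, so fewer cells of a type and less RNA per cell cannot be told apart.

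The frozen arrays fell into named control sets that did not mix carcinomas with adenomas or nodules. The 3 surrounding arrays in the sets of the carcinomas differed from the 4 in the other sets: 323 genes were higher (2.27% of genes) and 426 were lower (3%). Among the proteasome genes, Psmb7 was higher by 1.2 ± 0.14 (adjusted p = 1.93e-05), with mean levels of 10.27 and 8.93. Psmd11, Psmc5 and Psmd13 were lower by 0.51, 0.47 and 0.45, with adjusted p-values of 0.00801, 0.0115 and 0.0485. Each call of a proteasome gene in a frozen lesion is therefore followed by the value from a fit that used the control set, instead of the rat, as the block. This is called the matched fit. For carcinomas against adenomas, lesion type and control set cannot be told apart, and the labels do not call the sets batches.

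The promoters of the inducible genes are shown because Psmb9, Psmb10, Psme1 and Psme2 rose in adenomas and Psmb8 fell in both carcinoma groups, with Psmb5 as the constitutive counterpart of Psmb8. They come from RefSeq on the GRCr8 build, which matched 42 of the 46 genes. Each is written 5′ to 3′ on the gene's own strand and ends just before the gene. Psme2 is the exception: it is shown only around its match, and that stretch lies inside the gene's annotated extent, which reaches upstream of the start used in the promoter table. Capitals mark matches to 3 motifs: the core of an interferon response element, which is GAAA, any 2 bases and GAAA again; TGACNNNGC, the core of an antioxidant response element; and CCAAT, here read on the other strand as ATTGG.
Psmb5, chr15:32047380-32047529, minus strand: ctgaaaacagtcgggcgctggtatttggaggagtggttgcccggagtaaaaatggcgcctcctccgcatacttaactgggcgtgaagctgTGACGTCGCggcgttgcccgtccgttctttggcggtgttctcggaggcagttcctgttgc
Psmb8, chr20:4657050-4657181, minus strand: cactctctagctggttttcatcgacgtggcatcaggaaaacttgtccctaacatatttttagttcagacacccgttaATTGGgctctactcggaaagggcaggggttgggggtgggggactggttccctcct
Psmb9, chr20:4668850-4668951, plus strand: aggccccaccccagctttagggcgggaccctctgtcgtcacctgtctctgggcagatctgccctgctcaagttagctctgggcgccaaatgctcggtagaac
Psmb10, chr19:50743293-50743442, minus strand: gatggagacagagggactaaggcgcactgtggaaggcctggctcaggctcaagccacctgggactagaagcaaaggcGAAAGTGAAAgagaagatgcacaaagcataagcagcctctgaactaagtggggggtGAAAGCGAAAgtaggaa
Psme1, chr15:33038821-33038961, plus strand: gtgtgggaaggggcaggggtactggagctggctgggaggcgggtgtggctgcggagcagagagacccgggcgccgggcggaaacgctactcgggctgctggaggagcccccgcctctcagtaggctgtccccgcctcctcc
Psme2, chr15:33052785-33052814, minus strand: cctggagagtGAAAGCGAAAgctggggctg

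Psmb10 held the interferon response core at 2 places, 73 and 17 bases before the start, and Psme2 held it 53 bases before the promoter table's start, inside its annotated extent. Over the 250 bases before the start and both strands, the interferon response core occurred in 5 of the 42 proteasome promoters (11.9%), those of Psma4, Psmb3, Psmb10, Psmd7 and Psme2, and in 3.41% of all 33469 promoters. TGACNNNGC occurred in 6 of 42 (14.3%) against 10.1% of all, and CCAAT in 21 of 42 (50%) against 34%. TTCNNNGAA, the core of a gamma interferon activation site, occurred in 4 of 42 (9.52%), those of Psmb8, Psmc6, Psmd3 and Psmd7, against 7.67% of all; the Psmb8 match lies outside the stretch shown. These are matches of letters only. On chromosome 20, Tap1, which encodes a transporter of peptides for MHC class I, lies between Psmb8 and Psmb9, and Psme1 and Psme2 are neighbours on chromosome 15.

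In frozen adenomas, 2 of the 3 immunoproteasome genes and 2 of the 3 activator genes rose, while Psmd3 and Psmc3 fell. Psmb7, whose level in surrounding liver differed between the kinds of control set, was also called as a fall, but not in the matched fit. Psmb10 and Psmb9 rose by 0.59 and 0.57, and Psme2 and Psme1 by 0.44 and 0.35. In all, 11 of the 46 proteasome genes rose (23.9%, against 15.4% of all genes), and 3 fell (6.52%, against 9.57%). In the matched fit 3 rose and 2 fell, against 8.36% and 6.56% of all genes. The median difference over the 46 genes was 0.07, against 0.02 over all genes, and -0.03 in the matched fit.

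Psmb9 stood at 9.37, 9.75 and 9.98 (lowest, median and highest) in surrounding liver and at 9.86, 10.41 and 10.62 in adenomas. The groups overlapped, and adenomas were higher in both rats that had both tissues. The rise was 0.57 ± 0.12, or 1.49-fold (adjusted p = 0.00142; matched fit 0.53, adjusted p = 0.0163). Psmb10, the inducible counterpart of Psmb7, ranged from 8.41 to 9.20 with a median of 8.81 in surrounding liver and from 8.97 to 9.43 with a median of 9.17 in adenomas. The upper surrounding arrays reached into the adenoma range. It rose by 0.59 ± 0.15, or 1.51-fold (adjusted p = 0.00638), and was not called in the matched fit (0.51, adjusted p = 0.0565). Psmb8, the inducible counterpart of Psmb5, had medians of 10.42 in surrounding liver and 10.55 in adenomas and was not called (0.05).

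**Figure D1:**
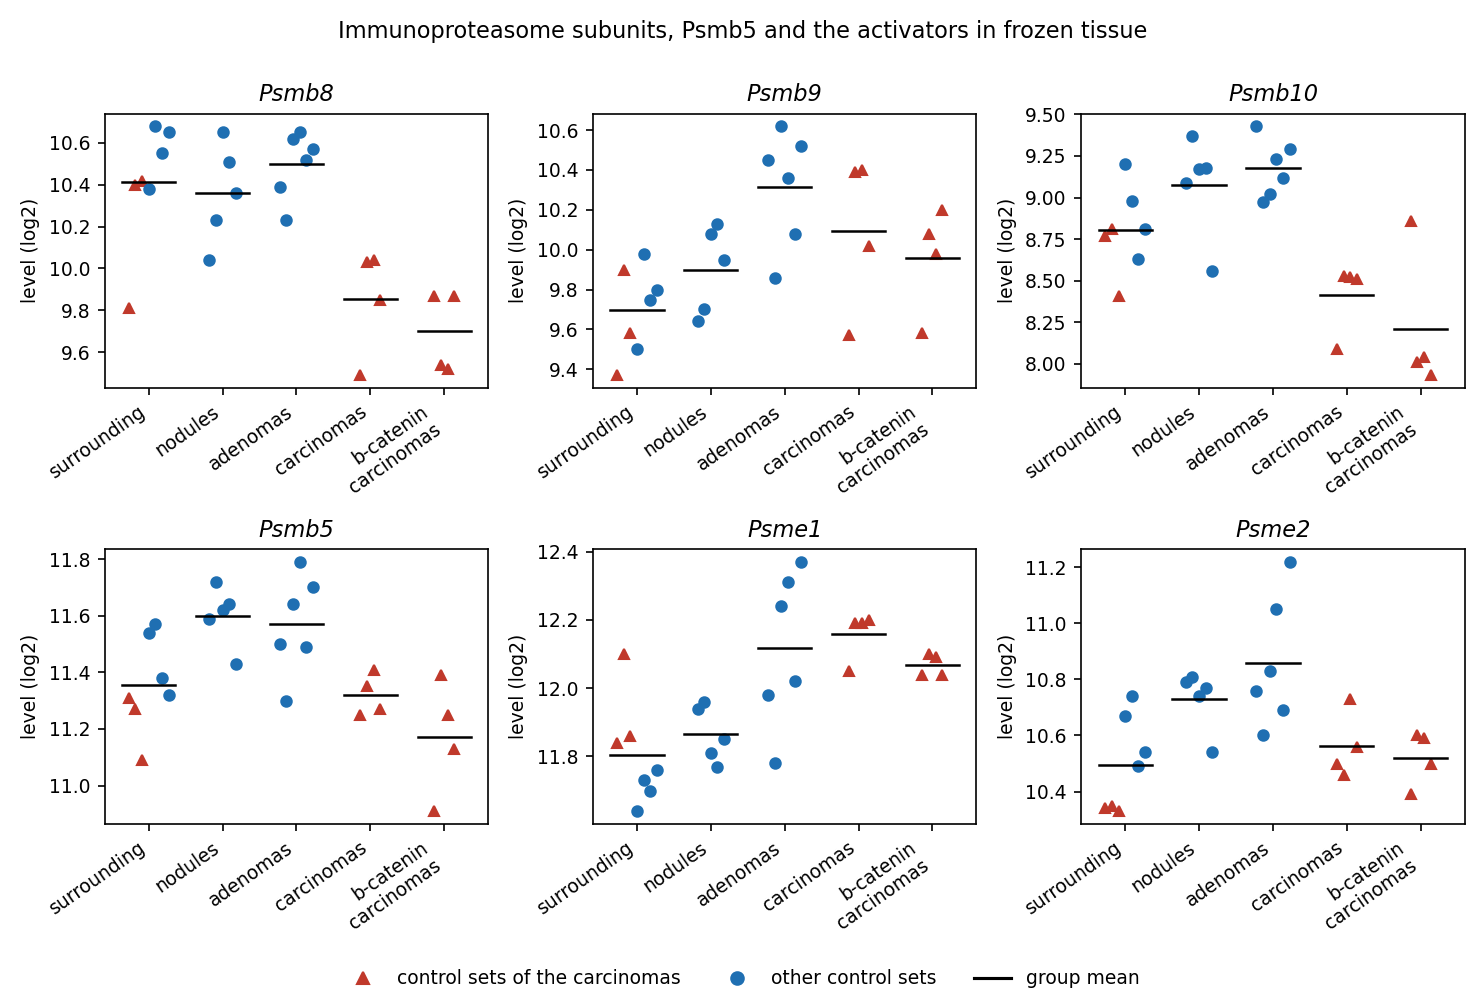
Log2 level of Psmb8, Psmb9, Psmb10, Psmb5, Psme1 and Psme2 on each frozen array, by group; triangles are arrays of the carcinomas' control sets, circles arrays of the other sets, and lines group means. Psmb9 and Psmb10 sit highest in adenomas, Psmb8 and Psmb10 lowest in the carcinoma groups.

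The activator genes moved beside them. Psme2 stood at 10.33, 10.49 and 10.74 (lowest, median, highest) in surrounding liver and at 10.60, 10.80 and 11.22 in adenomas. The groups overlapped between 10.60 and 10.74. It rose by 0.44 ± 0.10, or 1.35-fold (adjusted p = 0.00404; matched fit 0.33, adjusted p = 0.0348). Psme1 stood at 11.64, 11.76 and 12.10 in surrounding liver and at 11.78, 12.13 and 12.37 in adenomas, again with overlap. Its rise was 0.35 ± 0.08, or 1.27-fold (adjusted p = 0.0051; matched fit 0.38, adjusted p = 0.0163). Psme4, which encodes a nuclear activator, was not called (0.06). Another probe set for it, which stood for the gene in FFPE tissue only, fell by 0.41 (adjusted p = 0.0126 in limma over all probe sets). In carcinomas against adenomas that probe set was higher by 0.56 (adjusted p = 0.0269). The remaining probe set gave -0.18 and 0.15 in these comparisons, neither called. The matched fit was not run for single probe sets. The called probe set ranged from 9.14 to 10.06 in surrounding liver, from 9.23 to 9.41 in adenomas and from 9.82 to 10.18 in carcinomas.

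Among constitutive core genes, Psma6, an alpha-ring subunit, rose by 0.30 ± 0.08 (adjusted p = 0.0135), with medians of 12.01 in surrounding liver and 12.29 in adenomas. Psmb5, the chymotrypsin-like catalytic subunit, rose by 0.30 ± 0.10 (adjusted p = 0.0356), with medians of 11.32 and 11.57. Neither was called in the matched fit (0.20 and 0.21, adjusted p = 0.128 and 0.178). Psmb5's call was lost without any of 7 arrays (nodule 5, adenomas 3, 4 and 6, surrounding liver 5, 6 and 7), at 0.23 to 0.29, and its other probe sets, with means of 3.79 and 4.49, gave -0.04 and 0.09.

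Psmd3, a scaffold subunit of the regulatory lid, fell in both fits. It stood at 8.36, 8.60 and 8.90 (lowest, median, highest) in surrounding liver and at 7.77, 7.94 and 8.26 in adenomas. Every adenoma lay below every surrounding array. It fell by 0.63 ± 0.10, or 1.55-fold (adjusted p = 0.000177; matched fit -0.51, adjusted p = 0.00385). Psmc3, an ATPase of the regulatory ring, stood at 10.52, 10.62 and 10.77 in surrounding liver and at 10.04, 10.18 and 10.43 in adenomas. These groups did not overlap either. Psmc3 fell by 0.31 ± 0.07, or 1.24-fold (adjusted p = 0.00505; matched fit -0.31, adjusted p = 0.0233).

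Psmd6, a lid subunit, differed the other way, rising by 0.39 ± 0.12 (adjusted p = 0.0221). It was not called in the matched fit (0.32, adjusted p = 0.15) or without surrounding array 7 or adenoma 4 or 6 (0.34 to 0.37). Psmc3ip, a meiotic recombination cofactor, rose by 0.46 ± 0.15 (adjusted p = 0.0299), or 0.40 with an adjusted p of 0.123 in the matched fit, a call lost without nodule 5, surrounding array 6 or 7, or adenoma 4 or 6 (0.40 to 0.45). The other rises were in Psmg2 and Psmg3, chaperones of core assembly, by 0.32 and 0.36, and in Psme3ip1, by 0.29, with adjusted p-values of 0.0382, 0.0341 and 0.0384. None of these 3 was called in the matched fit (0.29, 0.24 and 0.22, adjusted p = 0.15, 0.204 and 0.176). Each call was lost without nodule 5, adenoma 4 or 6, surrounding array 5, 6 or 7, or carcinoma 4; also without adenoma 3 or 5 for Psmg2 (0.29 to 0.32 in all), adenoma 5 for Psmg3 (0.27 to 0.36), and adenoma 3 or surrounding array 2 or 3 for Psme3ip1 (0.24 to 0.29). These 3 were named after their values were seen. The count of 14 calls was 9 without nodule 5 or surrounding array 6, 8 without adenoma 4 or 6, and 7 without surrounding array 7. Psma6, Psmb9, Psmb10, Psmc3, Psmd3, Psme1 and Psme2 were called with each of the 26 arrays left out in turn.

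Psmb7, the trypsin-like catalytic subunit, followed the control sets. In surrounding liver of the other sets it stood at 8.80, 8.83, 9.01 and 9.07, and in that of the carcinomas' sets at 10.16, 10.32 and 10.33. In the same rat the levels were 9.07 and 10.33 for animal 10 and 8.83 and 10.32 for animal 23, so surrounding liver of 1 rat was low in one set and high in the other. Nodules lay between 8.63 and 9.09 and adenomas between 8.32 and 8.92, with the low surrounding arrays. Carcinomas, at 10.02, 10.20, 10.30 and 10.46, and beta-catenin carcinomas, at 9.90, 10.21, 10.23 and 10.45, lay with the high ones. The fall of 0.75 ± 0.22 in adenomas (adjusted p = 0.0181) was -0.26 in the matched fit (adjusted p = 0.169) and -0.55, not called, without surrounding array 7.

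**Figure D2:**
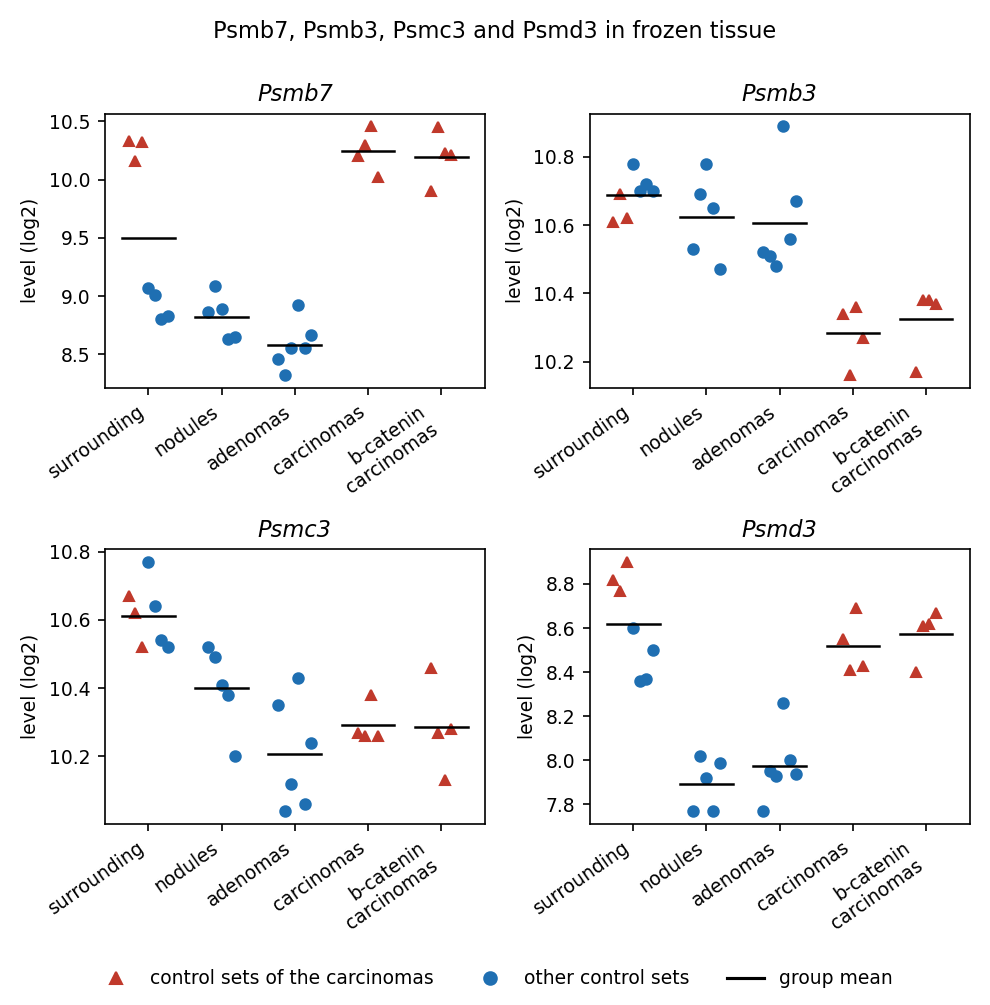
Log2 level of Psmb7, Psmb3, Psmc3 and Psmd3 on each frozen array, by group; triangles are arrays of the carcinomas' control sets, circles arrays of the other sets, and lines group means. Psmb7 splits by control set even within surrounding liver (8.93 against 10.27 on average), Psmb3 is lower in both carcinoma groups, and Psmd3 is lower in nodules and adenomas.

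In nodules, also called minitumors in the labels, Psmd3 was the sole proteasome gene called: 1 of 46 genes fell (2.17%, against 0.0352% of all genes) and none rose (0.19% of all genes). Its levels were 7.77, 7.77, 7.92, 7.99 and 8.02 in the 5 nodules, all below the lowest surrounding array at 8.36. It fell by 0.63 ± 0.10, or 1.55-fold (adjusted p = 0.03), with lower means in 3 of 3 rats. The call was lost in the matched fit (-0.53, adjusted p = 0.113), without nodule 1 (-0.55) or 2 (-0.64), and without surrounding array 2 (-0.58). At an unadjusted p below 0.05 limma had 4 genes higher and 3 lower; in the matched fit it called 0 and had 0 higher and 3 lower.

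None of the inducible genes was called in nodules. Psmb9 stood at 9.64, 9.70, 9.95, 10.08 and 10.13 in the 5 nodules, a difference of 0.24 ± 0.12 (adjusted p = 0.419), and Psme2 differed by 0.23 ± 0.10 (adjusted p = 0.366). Psmb10 differed by 0.17 ± 0.15 and Psme1 by 0.14 ± 0.09, whereas Psmb8 differed by -0.06 ± 0.13 (adjusted p = 0.703, 0.502 and 0.886). Between adenomas and nodules limma called 0 genes of all 14217 (0%), and at an unadjusted p below 0.05 it had 2 proteasome genes higher and 0 lower. They were Psmb9 (0.34 ± 0.14, adjusted p = 0.251) and Psmb10 (0.42 ± 0.18, adjusted p = 0.255). Only 1 rat had both lesions.

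In carcinomas without the mutation label, a constitutive core gene, an immunoproteasome gene and an ATPase gene fell: Psmb3, Psmb8 and Psmc3. These were 3 of 46 genes (6.52%, against 6.91% of all genes), and none rose (4.48% of all genes); the matched fit had 2 fall and none rise, against 3.5% and 2.86% of all genes. The share of falls was near that of all genes, and the median over the 46 genes was -0.08, against -0.02. Each of the 3 was lower in 3 of 3 rats.

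Psmb3, a structural beta-ring subunit, stood at 10.16, 10.27, 10.34 and 10.36 in carcinomas and at 10.61, 10.70 and 10.78 (lowest, median, highest) in surrounding liver. All 4 carcinomas lay below all 7 surrounding arrays. It fell by 0.42 ± 0.08, or 1.33-fold (adjusted p = 0.0027; matched fit -0.36, adjusted p = 0.0255). Psmc3 stood at 10.26, 10.26, 10.27 and 10.38, also below every surrounding array. It fell by 0.35 ± 0.08, or 1.27-fold (adjusted p = 0.00776; matched fit -0.32, adjusted p = 0.0442), and was not called without carcinoma 1 (-0.28).

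Psmb8 stood at 9.49, 9.85, 10.03 and 10.04 in carcinomas and at 9.81, 10.42 and 10.68 (lowest, median, highest) in surrounding liver. The groups overlapped through 1 surrounding array, replicate 2, at 9.81; the next was 10.38. Psmb8 fell by 0.54 ± 0.13, or 1.46-fold (adjusted p = 0.011), and was not called in the matched fit (-0.39, adjusted p = 0.103) or without carcinoma 1 (-0.45) or 4 (-0.50). Its chromosomal neighbour Psmb9, at 9.57, 10.02, 10.39 and 10.40 in the same carcinomas, differed by 0.33 ± 0.13 (adjusted p = 0.1), higher in 3 of 3 rats. Whether the difference in Psmb8 departs from that in Psmb9 was not tested. Psmb10 differed by -0.40 ± 0.16 (adjusted p = 0.117). The count of 3 calls was 1 without carcinoma 1, 5 without beta-catenin carcinoma 1, adenoma 2 or surrounding array 7, and 7 without surrounding array 5; with quantile normalization it was 4, of which 1 rose.

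In beta-catenin carcinomas, genes of the alpha ring, the beta ring, the ATPase ring and a ubiquitin receptor fell, as did 2 immunoproteasome genes. In all, 9 of 46 genes fell (19.6%, against 9.58% of all genes) and 1 rose (2.17%, against 7.74%). In the matched fit 4 fell and 1 rose, against 5.07% and 5.09%. The median over the 46 genes was -0.12, against -0.01 over all genes.

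Psma5, an alpha-ring subunit, stood at 9.89, 10.01, 10.10 and 10.33 in these tumours and at 10.49, 10.60 and 10.80 (lowest, median, highest) in surrounding liver. The groups did not overlap. It fell by 0.57 ± 0.09, or 1.48-fold (adjusted p = 0.000236; matched fit -0.43, adjusted p = 0.00506). Psmb8, at 9.52, 9.54, 9.87 and 9.87, overlapped surrounding liver only through surrounding replicate 2. It fell by 0.70 ± 0.13, or 1.63-fold (adjusted p = 0.000758; matched fit -0.53, adjusted p = 0.0212).

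Psmb3, at 10.17, 10.37, 10.38 and 10.38, lay below all surrounding arrays and fell by 0.38 ± 0.08, or 1.30-fold (adjusted p = 0.00227; matched fit -0.32, adjusted p = 0.033). Psmc3, at 10.13, 10.27, 10.28 and 10.46, also lay below them all and fell by 0.33 ± 0.08 (adjusted p = 0.00547; matched fit -0.30, adjusted p = 0.0432). Psmc5, another ATPase of the ring, stood at 8.95, 9.17, 9.22 and 9.44, just below the surrounding minimum of 9.45. It fell by 0.49 ± 0.12, or 1.40-fold (adjusted p = 0.00561); in the matched fit it was -0.27 (adjusted p = 0.0847), and its level in surrounding liver differed between the kinds of control set, as given above.

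Psmb10 stood at 7.93, 8.01, 8.04 and 8.86, with 3 tumours below every surrounding array and 1 among them. It fell by 0.56 ± 0.15, or 1.47-fold (adjusted p = 0.0154), a call lost in the matched fit (-0.41, adjusted p = 0.161) and without tumour 2 (-0.46) or 4 (-0.51). Psmd4, the ubiquitin receptor of the regulatory particle, stood at 8.81, 8.88, 8.93 and 9.0, below the surrounding minimum of 9.07. It fell by 0.29 ± 0.08 (adjusted p = 0.0191), a call lost in the matched fit (-0.21, adjusted p = 0.177) and without tumour 1 (-0.26) or 3 (-0.28).

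Psma7 and Psmb2, ring subunits, fell by 0.26 ± 0.08 and 0.27 ± 0.08 (adjusted p = 0.0365 and 0.031). Neither was called in the matched fit (-0.12 and -0.21, adjusted p = 0.439 and 0.177). Psma7, lower in 2 of 3 rats, was not called without surrounding array 1, 4 or 6 or tumour 1, 3 or 4 (-0.22 to -0.27). Psmb2 was not called without surrounding array 2, 4 or 6 or any of the 4 tumours (-0.25 to -0.28). Without tumour 3 the count of 10 calls was 6.

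The gene that rose was Psmg2, which pairs with Psmg1 to start assembly of the alpha ring. It stood at 8.60, 8.88, 9.34 and 9.34 in these tumours and at 8.44, 8.48 and 8.75 (lowest, median, highest) in surrounding liver. The lowest tumour overlapped surrounding liver. It rose by 0.46 ± 0.12, or 1.37-fold (adjusted p = 0.00852; matched fit 0.53, adjusted p = 0.0195), and was not called without tumour 3 (0.34). Psmg1 differed by -0.20 ± 0.12 (adjusted p = 0.291). Psmb9, at 9.58, 9.98, 10.08 and 10.20, differed by 0.24 ± 0.12 (adjusted p = 0.181). Psme1 and Psmb5 were called in neither carcinoma group. Over all probe sets limma gave Psme1 0.25 ± 0.09 in carcinomas and 0.19 ± 0.09 in beta-catenin carcinomas (adjusted p = 0.0864 and 0.152). Its levels were 12.05 to 12.2 and 12.04 to 12.1, inside the adenoma range of 11.78 to 12.37. For carcinomas against adenomas it gave -0.09 (adjusted p = 0.642). Psmb5 gave -0.07 and -0.19 against surrounding liver (adjusted p = 0.754 and 0.239).

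**Figure D3:**
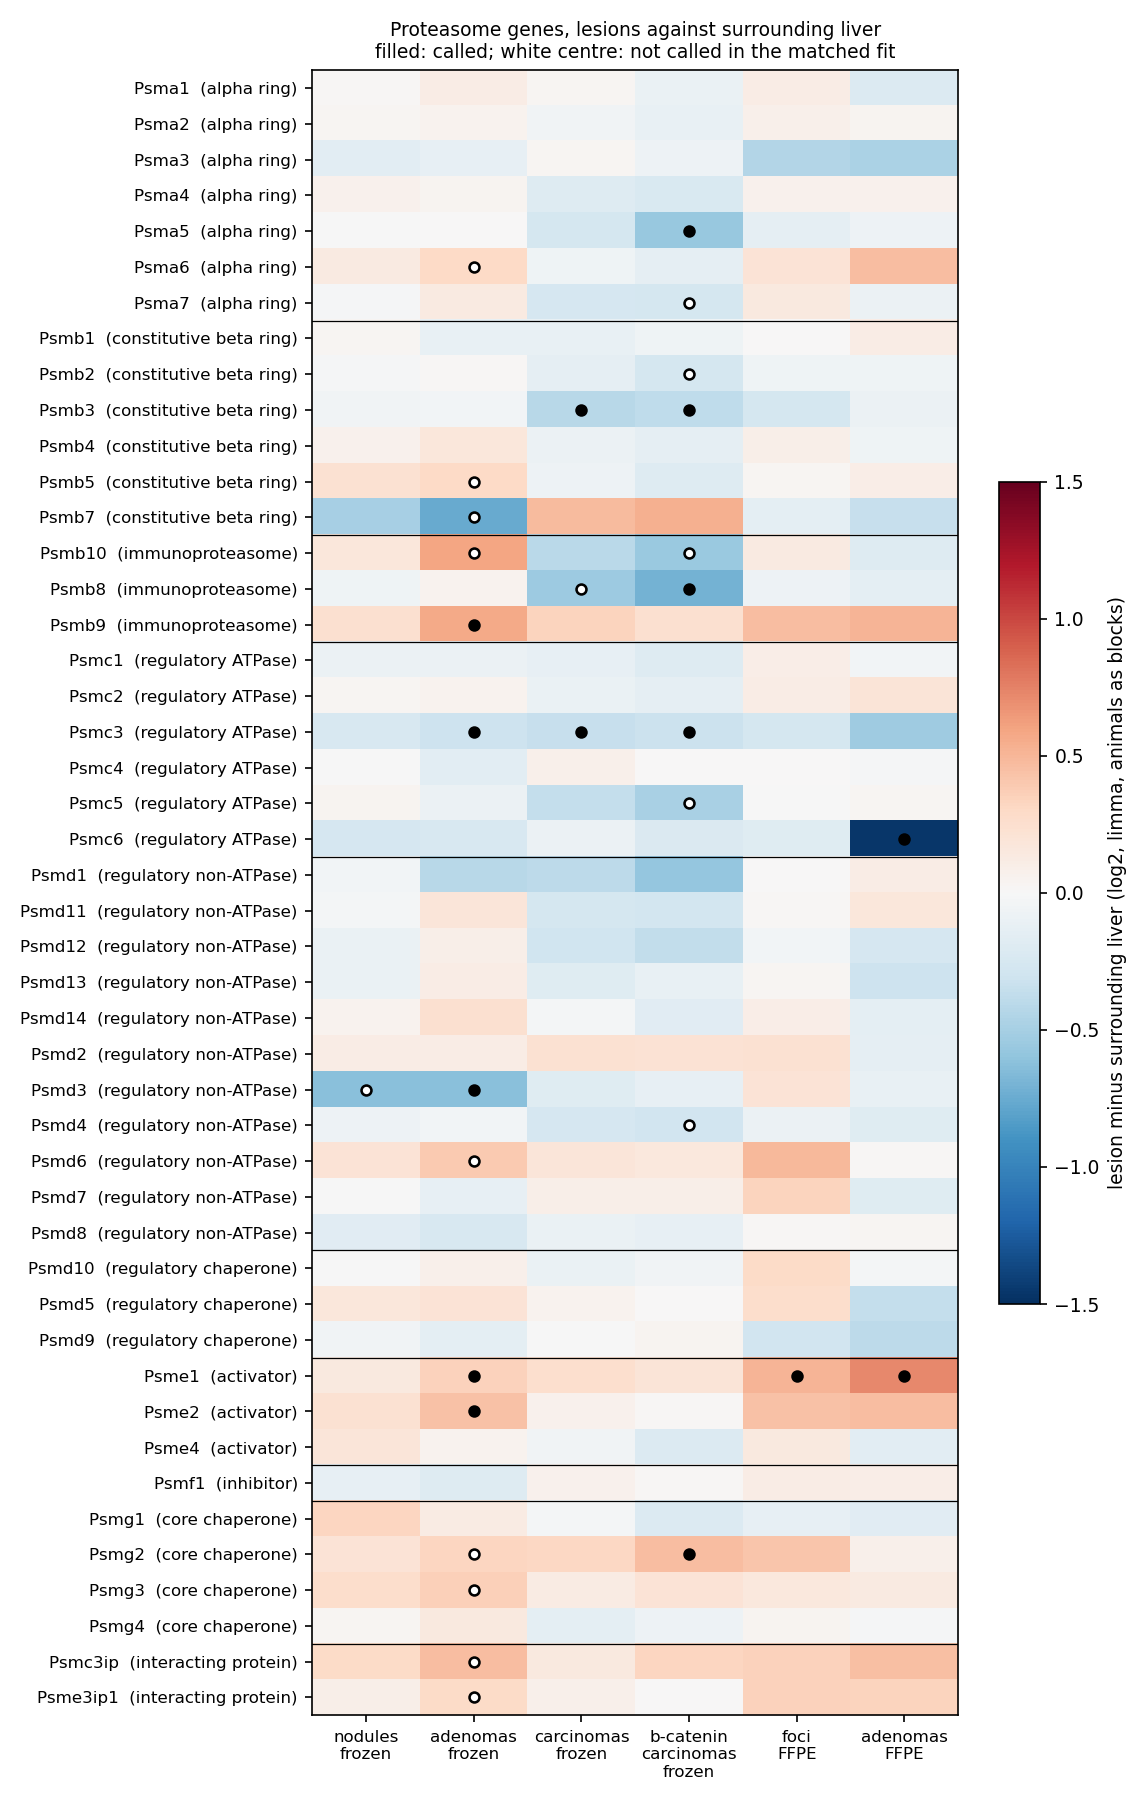
Log2 difference from surrounding liver of the 46 proteasome genes (rows) in the frozen and FFPE lesion groups (columns), by colour; a filled mark is a gene called at an adjusted p below 0.05, and a white centre marks one not called in the matched fit. Frozen adenomas hold 14 calls, beta-catenin carcinomas 10, carcinomas 3 and nodules 1.

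Between the carcinoma types, limma called 0 of 14217 genes (0%). Among the proteasome genes 0 were higher and 1 lower at an unadjusted p below 0.05, Psma5, by 0.30 ± 0.10 (adjusted p = 0.658). Carcinomas stood at 10.19, 10.32, 10.56 and 10.63 for it, so the highest beta-catenin tumour, at 10.33, lay above the lowest carcinomas. The next gene by p was Psmb2, at -0.13 ± 0.09 (adjusted p = 0.999). A different number of calls against surrounding liver thus does not show that the carcinoma types differed.

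Carcinomas against adenomas had 1 gene higher (1.17% of all genes were) and 4 lower (1.78% of all genes). Psmb7 was higher by 1.23 ± 0.28 (adjusted p = 0.0325), and Psmb10, Psmb8, Psma7 and Psmb3 were lower: their differences were -0.99 ± 0.19, -0.59 ± 0.16, -0.38 ± 0.10 and -0.37 ± 0.10, with adjusted p-values of 0.0265, 0.0425, 0.0462 and 0.0413. Psmb10 stood at 8.09, 8.51, 8.52 and 8.53 in carcinomas and at 8.97 or more in adenomas, so these did not overlap. No control set held both lesion types, and only 1 rat did. The matched fit gave 0.20 for Psmb7, -0.77 for Psmb10, -0.29 for Psmb8, -0.13 for Psma7 and -0.28 for Psmb3, with 0 calls, and at an unadjusted p below 0.05 it had 0 genes higher and 2 lower. The count of 5 was 0 without carcinoma 1 or 4, nodule 5 or adenoma 6, 1 without beta-catenin carcinoma 2, 2 without nodule 1 or 2, beta-catenin carcinoma 3 or 4 or adenoma 5, 3 without nodule 3 or adenoma 4, and 8 without surrounding array 4. With quantile normalization 2 were higher and 3 lower.

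By class, the 13 constitutive core genes had a median difference of 0.04 in frozen adenomas, -0.09 in carcinomas and -0.14 in beta-catenin carcinomas. For the 17 ATPase and non-ATPase genes of the regulatory particle the medians were -0.08, -0.13 and -0.17. The 3 immunoproteasome genes had medians of 0.57, -0.40 and -0.56, and the 3 activator genes 0.35, 0.06 and 0.02. In the matched fit the medians were -0.06, -0.04 and -0.07 for the core, -0.12, -0.06 and -0.12 for the regulatory particle, 0.51, -0.26 and -0.41 for the immunoproteasome and 0.33, 0.20 and 0.13 for the activators, so the sign for the core in adenomas turned between the fits. The immunoproteasome medians in the carcinoma groups are over genes on both sides of 0. They ranged from -0.54 to 0.33 in carcinomas and from -0.70 to 0.24 in beta-catenin carcinomas. In frozen adenomas these genes ranged from 0.05 to 0.59. The immunoproteasome median was 0.17 in nodules, 0.13 in FFPE foci and -0.15 in FFPE adenomas, each over genes on both sides of 0. In the same order, medians were 0.02, 0.03 and -0.07 for the core and -0.05, 0.02 and -0.11 for the regulatory particle. As a mean over the 3 immunoproteasome genes relative to surrounding liver, frozen adenomas lay between 0.05 and 0.49 and frozen surrounding arrays between -0.32 and 0.24. Carcinomas lay between -0.59 and 0.02 and beta-catenin carcinomas between -0.45 and -0.20. FFPE adenomas lay between -0.21 and 0.21.

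Several genes of interest in liver tumours were called in no comparison by the probe set that stood for them. Psmd10, or gankyrin, a chaperone of the regulatory particle known as an oncoprotein in liver cancer, differed from surrounding liver by 0.08 in frozen adenomas, -0.10 in carcinomas and -0.05 in beta-catenin carcinomas. Psmd14, the deubiquitinase of the lid, differed by 0.24 ± 0.12 in frozen adenomas (adjusted p = 0.144) and -0.17 in beta-catenin carcinomas. Its other probe sets gave -0.40 and 0.04 in frozen adenomas and 0.18 and 0.001 in beta-catenin carcinomas, none called. The probe set chosen for Psmd14 differed between the fixations. Psmf1, an inhibitor of the core, differed by -0.19 in adenomas and 0.07 in carcinomas. Psmg1 differed by 0.32 ± 0.12 in nodules (adjusted p = 0.25). Psme4 differed by -0.20 in beta-catenin carcinomas (adjusted p = 0.213).

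In the FFPE material the activator gene Psme1 rose in both lesion types, and Psmc6 fell in adenomas. In foci, 1 of 46 proteasome genes rose (2.17%, against 1.81% of all genes) and 0 fell (1.36% of all genes). At an unadjusted p below 0.05 in limma 4 were higher and 0 lower, a share not counted over all genes. In FFPE adenomas 1 rose (1.29% of all genes) and 1 fell (0.872% of all genes). The median SD of a proteasome gene over surrounding arrays was 0.35 in FFPE tissue and 0.15 in frozen tissue.

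Psme1 stood at 9.42, 9.91, 9.98 and 10.02 in FFPE surrounding liver, at 10.25, 10.47 and 10.75 (lowest, median, highest) in foci and at 10.05, 10.13, 10.43, 10.76 and 11.04 in adenomas. Every focus and every adenoma lay above every surrounding array. It rose by 0.51 ± 0.13, or 1.43-fold, in foci (adjusted p = 0.0296) and by 0.72 ± 0.15, or 1.64-fold, in adenomas (adjusted p = 0.00646), higher in 3 of 3 rats in each. The call in foci was lost without focus 3 or 9 (0.49 for each) or surrounding array 1 (0.48), 2 (0.52), 3 (0.47) or 4 (0.58). It was also lost when only foci and surrounding liver were fitted (0.52, adjusted p = 0.0515). The call in adenomas was kept with each array left out, but lost with no block (0.65, adjusted p = 0.131), with the rat as a random block (0.66, adjusted p = 0.0642) and with only the groups compared (0.69, adjusted p = 0.0595). A second, dimmer probe set for Psme1, with a mean of 5.20 against 10.34, gave -0.81 ± 0.30 in foci and -0.81 ± 0.33 in adenomas, neither called (adjusted p = 0.193 and 0.305 over all probe sets). It stood between 5.63 and 6.23 in surrounding liver and between 4.62 and 5.32 in adenomas. The mean of both probe sets gave -0.148 in foci and -0.048 in adenomas, so the direction for Psme1 in fixed tissue rests on the brighter probe set.

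Psmc6, an ATPase of the regulatory ring, stood at 6.46, 8.11, 8.71 and 9.80 in FFPE surrounding liver and at 6.77, 7.28, 7.34, 7.41 and 7.69 in adenomas. The adenomas lay inside the wide spread of surrounding liver. With rats as blocks it fell by 1.46 ± 0.34 (adjusted p = 0.0167), while the plain difference of means was -0.97. The call was lost without surrounding array 1 (-1.48), 2 (-1.08) or 4 (-1.30), with no block (-0.97, adjusted p = 0.488), with a random block (-1.10, adjusted p = 0.285) and with the mean of its probe sets (-0.86, adjusted p = 0.0618). The other probe sets of Psmc6 gave -1.09 and -0.03, neither called.

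**Figure D4:**
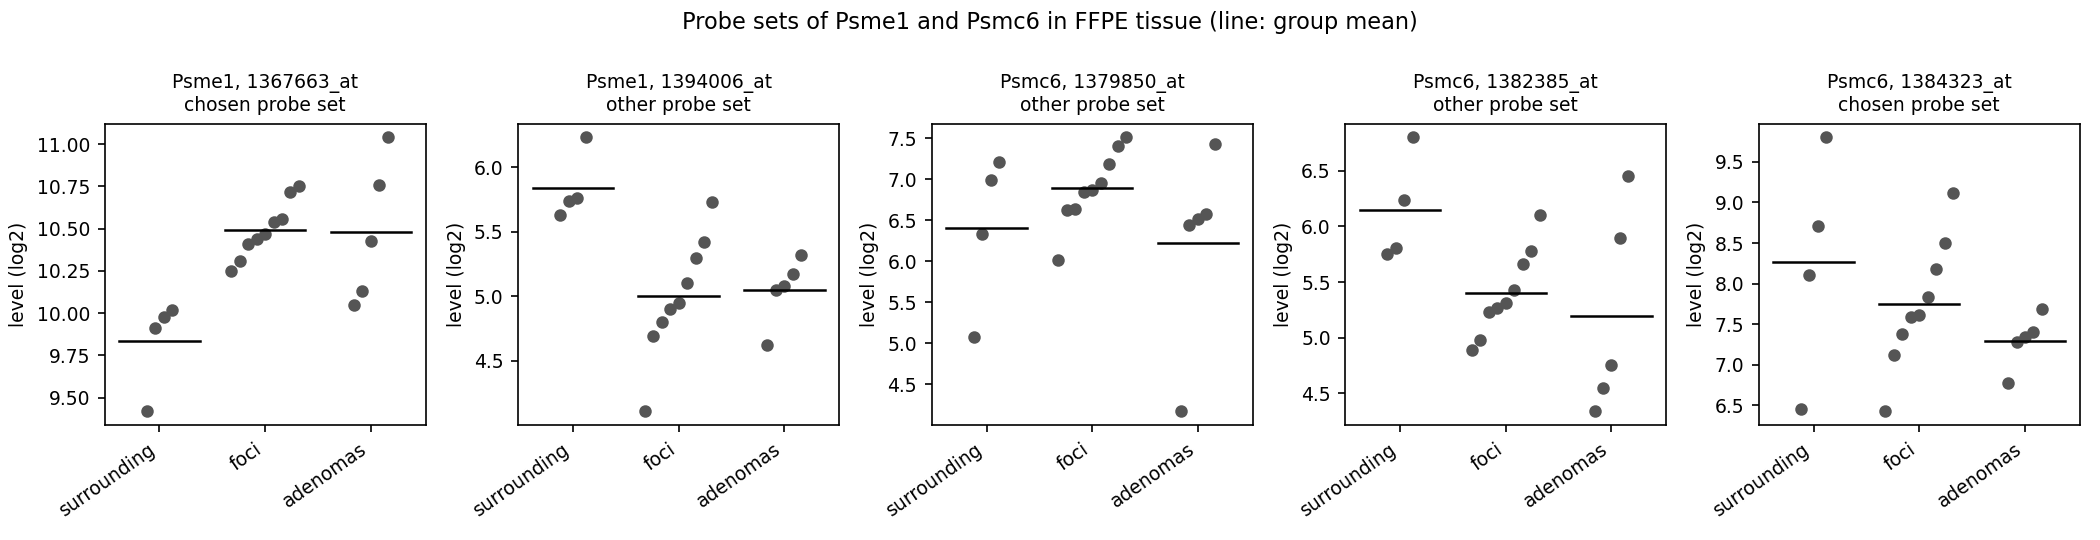
Log2 level of the 2 probe sets of Psme1 and the 3 of Psmc6 on each FFPE array, by group, with lines at group means. The brighter Psme1 probe set is higher in foci and adenomas than in surrounding liver, the dimmer one lower in adenomas, and Psmc6 is widely spread in surrounding liver (6.46 to 9.80).

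The other inducible genes were not called in FFPE lesions. Psmb9 stood at 7.75, 8.02, 8.22 and 8.51 in surrounding liver and at 8.09, 8.34, 8.46, 8.86 and 9.24 in adenomas, with overlap. It differed by 0.46 ± 0.19 in foci and 0.51 ± 0.21 in adenomas (adjusted p = 0.255 and 0.302), higher in 3 of 3 rats in both. Psme2 differed by 0.44 ± 0.18 and 0.47 ± 0.20 (adjusted p = 0.248 and 0.334). Psmb8 differed by -0.08 and -0.15, and Psmb10 by 0.13 and -0.20. Psmd3, which fell in frozen nodules and adenomas, differed by 0.21 in foci and -0.11 in FFPE adenomas (adjusted p = 0.798 and 0.943).

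The adenoma difference itself was compared between fixations in 1 joint fit. It called 0 proteasome genes, against 13 higher (0.0914%) and 34 lower (0.239%) of all genes; at an unadjusted p below 0.05 limma had 1 higher and 3 lower. The lowest p-values went to Psmc6 (FFPE minus frozen -1.21 ± 0.36, adjusted p = 0.145), Psmb10 (-0.79 ± 0.29, adjusted p = 0.265) and Psme1 (0.37 ± 0.15, adjusted p = 0.291). FFPE adenomas and foci were compared as well. limma called 0 of all genes (0%), with 0 proteasome genes higher and 4 lower at an unadjusted p below 0.05, led by Psmc6 (-1.27 ± 0.32, adjusted p = 0.886) and Psmd7, a lid subunit (-0.51 ± 0.19, adjusted p = 0.999). The other probe sets of Psmc6 gave -0.67 and -0.16. The other Psmd7 probe set, with a mean of 9.27 against 9.30, gave 0.06.

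Genes that work with the proteasome were taken from lists of partners (13 of 14 measured), of ubiquitin and shuttle factors (12 of 17) and of interferon and antigen processing (15 of 16). In frozen adenomas 2 partners rose and 4 fell, where 15.4% of all genes rose and 9.57% fell. Ddi2, a protease that activates the transcription factor of proteasome genes, fell by 0.91 ± 0.10 (adjusted p = 8.07e-06; matched fit -0.82, adjusted p = 0.000209), from a mean of 10.27 to 9.52. Akirin2, which brings proteasomes into the nucleus, fell by 0.87 ± 0.26 (adjusted p = 0.0176; matched fit -0.33, adjusted p = 0.124). Usp14, a deubiquitinase of the regulatory particle, and Pomp, the core maturation chaperone, rose by 0.41 and 0.25 (adjusted p = 0.01 and 0.0467; neither called in the matched fit). Among ubiquitin and shuttle factors 0 rose and 2 fell: Nploc4 by 0.43 and the shuttle Ubqln1 by 0.38, of which Ubqln1 was called in the matched fit (-0.39, adjusted p = 0.0113).

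The interferon and antigen processing list had 1 rise and 1 fall in frozen adenomas. Cxcl10, an interferon-induced chemokine, rose by 0.96 ± 0.31 (adjusted p = 0.0271), and Isg15, an interferon-induced ubiquitin-like protein, fell by 0.49 ± 0.18 (adjusted p = 0.0492); neither was called in the matched fit (adjusted p = 0.125 and 0.103). These 2 called genes went opposite ways, and whether the list moved with Psmb9 and Psmb10 was not tested. The mean over its 15 genes relative to surrounding liver ranged from -0.08 to 0.27 in frozen adenomas, against -0.11 to 0.12 in surrounding arrays. In carcinomas 4 of the list's 15 genes fell and 0 rose, where 6.91% of all genes fell and 4.48% rose. They were led by Isg15 (-1.12 ± 0.19, adjusted p = 0.000944) and the interferon transcription factor Irf7 (-1.04 ± 0.24, adjusted p = 0.00769), with both called in the matched fit (-1.06 and -1.21). In beta-catenin carcinomas the count was also 4 and 0 (9.58% and 7.74% of all genes), with Irf7 at -1.11 ± 0.23 and Isg15 at -0.83 ± 0.18 (adjusted p = 0.00214 and 0.00366), and all 4 were called in the matched fit. Mx1 and Nlrc5, the latter an activator of MHC class I genes, completed the 4 in each; in carcinomas neither was called in the matched fit (adjusted p = 0.0501 for both). In both carcinoma groups 0 partners were called; Uba1, the ubiquitin-activating enzyme, and Bag6 rose and Ufd1 fell in beta-catenin carcinomas, by 0.77, 0.43 and 0.28, none called in the matched fit. In carcinomas against adenomas, the partners Akirin2, Adrm1 and Ddi2 were higher by 1.35, 0.82 and 0.65, as was Uba1 by 1.03, and Mx1 was lower (-0.61), none called in the matched fit. Of all genes 1.17% were higher and 1.78% lower in that comparison. In nodules and foci 0 genes of these lists were called, and in FFPE adenomas 1 was, Cd74, the invariant chain of MHC class II, which rose by 0.83 ± 0.21 (adjusted p = 0.0334). Of all genes 1.29% rose in FFPE adenomas.

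Markers of other liver cells moved with several of these results. Of 9 macrophage markers, 4 fell in frozen adenomas, 4 in carcinomas and 6 in beta-catenin carcinomas (2, 7 and 7 in the matched fit), where 9.57%, 6.91% and 9.58% of all genes fell. Their mean relative to surrounding liver ranged from -1.12 to 0.06, from -1.22 to -0.28 and from -1.42 to -0.57, against -0.24 to 0.36 in surrounding arrays. Cd163 fell by 1.45 in carcinomas and 1.75 in beta-catenin carcinomas. Psmb8 fell in both groups and Psmb10 in the second, while Psmb9 differed by 0.33 and 0.24 and was not called. In frozen adenomas, where 4 macrophage markers fell, Psmb9 and Psmb10 rose. In nodules, where Psmd3 fell, the macrophage mean was -0.58 to -0.31, outside the surrounding range, with 0 of 9 markers called. Of 11 lymphocyte markers 2 fell in adenomas and 0 were called in the carcinoma groups, where their mean ranged from -0.32 to -0.02 over both. In frozen and FFPE adenomas 15.4% and 1.29% of all genes rose. Of 4 bile duct markers 2 rose in frozen adenomas (Krt19 by 4.37 ± 1.02 and Epcam by 1.40 ± 0.28) and in FFPE adenomas (2.53 and 0.93). The mean of the 4 ranged from 0.67 to 2.68 in frozen adenomas and from 0.51 to 2.5 in nodules, above every surrounding array (-0.35 to 0.44), though 0 were called in nodules. Of 4 blood cell markers 2 fell in frozen adenomas, where their mean was -2.22 to -0.37, against -1.01 to 1.44 in surrounding liver. Of the 7 hepatocyte markers, 1 rose and 2 fell in frozen adenomas, and 2 fell in each carcinoma group. Of 9 stellate and fibroblast markers 3 rose in FFPE foci and in FFPE adenomas, where Psme1 and 1.81% and 1.29% of all genes rose. The lymphocyte mean in foci ranged from -0.49 to -0.03, against -0.15 to 0.09 in FFPE surrounding liver. For macrophage markers the foci ranged from -0.90 to -0.26, against -0.45 to 0.55. For bile duct markers they ranged from -0.02 to 1.29, against -0.36 to 0.24. Over 5 endothelial markers the mean was -0.72 to -0.10 in beta-catenin carcinomas and -0.53 to 0.06 in carcinomas. It was -0.78 to 0.48 in frozen adenomas, against -0.21 to 0.13 in frozen surrounding liver. The part of all these cell types in the proteasome results was not tested.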

How the data were processed

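Deposited log2 intensities of 31042 probe sets on 47 rat arrays were used as the authors left them; background correction and normalization are not given in the sources used here. Of the probe sets, 20826 name 1 gene symbol, 436 several and 9780 none. The brightest probe set within a fixation stood for a gene; of 60 proteasome probe sets, 9 genes had several, and the choice differed between fixations for 2 genes. Groups came from the labels. limma 3.58.1 (R 4.3.3; lmFit, eBayes with trend) was fitted over all groups of a fixation with the rat as a block, with 17 residual degrees of freedom for frozen arrays (15 in the matched fit) and 12 for FFPE arrays. It was tested on simulated data.

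Rats pair the samples by the labels; deviations from group means had a median correlation of 0.13 over 50 same-rat pairs and -0.03 over 217 others in frozen tissue, and 0.11 over 23 and -0.04 over 78 in FFPE tissue. The labels conflict for 1 beta-catenin carcinoma and 1 FFPE adenoma, kept as grouped, and the source numbers given for animal 21 differ among its samples. The genes and lists were chosen with earlier results of these data known. Named were the catalytic, activator and selected regulatory genes, though not each of them in every comparison. Also named were every called gene (or, above 8 in a direction, the 4 with the greatest change per class) and the 2 lowest p-values where none was called. The 2 greatest called changes per direction of each partner list were named too. Alternatives covered the block, normalization, dim genes, probe set choice, groups fitted, conflicting labels and each array left out.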

Additional observations from a re-analysis of the deposited data

Results flagged for a closer look

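Values of the 27 named genes and the class means were screened for a sample far from the rest of its group. Of 264 sets of values 13 were flagged, near the share of about 1 in 20 that chance gives. Each is given with its nearest neighbour in the group. Among immunoproteasome genes, Psmb10 was at 8.86 in beta-catenin carcinoma 1 (next 8.04) and at 8.09 in carcinoma 1 (next 8.51). Psmb8 was at 9.81 in frozen surrounding liver 2 (next 10.38) and at 9.45 in FFPE surrounding liver 3 (next 9.62). In the core, Psmb3 was at 10.17 in beta-catenin carcinoma 1 (next 10.37) and Psmb7 at 9.35 in FFPE surrounding liver 3 (next 9.88). In the regulatory particle, Psmc3 was at 10.38 in carcinoma 3 (next 10.27), Psmc6 at 9.64 in frozen surrounding liver 1 (next 10.09), Psmd10 at 8.25 in FFPE adenoma 3 (next 7.62) and Psmd14 at 9.84 in beta-catenin carcinoma 2 (next 9.41). Among activators, Psme1 was at 12.05 in carcinoma 1 (next 12.19), Psme2 at 10.54 in nodule 5 (next 10.74) and Psme4 at 9.54 in focus 6 (next 9.91). Beta-catenin carcinoma 1 is the sample whose labels conflict on the mutation.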

How the results depend on the processing

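Counts of proteasome genes called depended on the block and the groups fitted. With control sets in place of rats as the replicate block, they moved from 1 to 0 in nodules, 14 to 5 in adenomas, 10 to 5 in beta-catenin carcinomas and 5 to 0 for carcinomas against adenomas. With no replicate block they were 7 in carcinomas (3 with it), 10 for carcinomas against adenomas and 0 in FFPE adenomas (2 with it), and with a random block 6, 10 and 0. Fitting only the groups compared gave 3 in adenomas, 2 in beta-catenin carcinomas, 0 for carcinomas against adenomas, 0 in foci and 1 in FFPE adenomas. Within 1 kind of control set, 0 were called in nodules, 3 in adenomas, 0 in carcinomas and 1 in beta-catenin carcinomas. Carcinomas had 7 calls without dim genes and 5 without the samples whose labels conflict. The mean of all probe sets gave 0 in foci and 0 in FFPE adenomas, and reversed Psme1 to -0.148 and -0.048 there. The causes were not tested. Leaving out each array gave 0 to 1 in nodules, 7 to 15 in adenomas, 1 to 7 in carcinomas, 6 to 11 in beta-catenin carcinomas, 0 to 8 for carcinomas against adenomas, 0 to 1 in foci and 1 to 2 in FFPE adenomas. Of 36 calls of a gene in a comparison, 12 stayed called in the matched fit and 21 did not, the other 3 being in FFPE tissue; 30 stayed with quantile normalization. Carcinomas against adenomas could not be fitted within 1 kind of set, and the matched fit in FFPE tissue is the fit with rats. Brightness limits the second probe sets of Psme1 and Psmb5.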

Other observations

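The 3 arrays whose labels call the tissue both normal and surrounding belonged to no group compared. On the 2 frozen ones, Psmb8 stood at 10.47 and 10.47, Psmb9 at 9.67 and 9.74, Psmb10 at 8.44 and 8.46, Psme1 at 11.58 and 11.66, and Psmb7 at 8.85 and 9.06. On the single FFPE one, the means over the constitutive core and over the regulatory particle were each 0.69 above FFPE surrounding liver. The means over the activators and over the chaperones were 0.48 and 0.49 above it, and the immunoproteasome mean was -0.10. On the 2 frozen arrays the core, regulatory particle and immunoproteasome means were 0.07, 0.12 and -0.10 relative to frozen surrounding liver. On the FFPE array Psmc6 stood at 10.65, above all 4 arrays of FFPE surrounding liver.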
